A study of Mus musculus with 5 samples.

Results

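Circular RNAs (circRNAs) whose host gene symbol begins with Zfp were examined in mouse testis, leaving out the 5 circles of Zfp609. The deposited circRNA table lists 11957 circles, of which 133, from 44 of 3496 host genes, carry such a symbol and were all kept. One further row, with a Zfp gene only in a combined symbol of overlapping genes, was not included. The libraries came from male C57BL/6J mice aged 10 weeks, with no genetic change given in the labels. Both groups were taken at day 35. Control mice had received saline (2 libraries), and treated mice had received triptolide, a diterpene triepoxide from the vine Tripterygium wilfordii, by mouth at a daily dose of 50 µg per kg (3 libraries). The labels give 6 mice per group but do not state how many animals went into each library, and the p-values reflect no more than the spread among the 5 libraries. The 3 triptolide columns of the circRNA table share 1 header and are called A, B and C here.

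A circRNA forms when the splice donor at the end of an exon is joined back to the splice acceptor at the start of the same or an upstream exon. The ring has no free end, is slowly degraded, and is recognised in sequencing by reads that cross the back-splice junction. Zfp genes encode zinc finger proteins, most of them of the C2H2 kind, in which a zinc ion holds a small DNA-binding finger in shape. Many C2H2 proteins carry a KRAB domain that recruits Trim28 and the histone methyltransferase Setdb1 to silence chromatin, and others act as activators, co-factors or RNA-binding proteins. Triptolide is known to bind the XPB subunit of TFIIH and to block transcription by RNA polymerase II. Bulk testis RNA holds germ cells of all stages and somatic cells, so fewer cells of a type and less RNA per cell cannot be told apart.

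Abundance is given as SRPBM, spliced back-junction reads scaled to the sequencing depth, as the authors' table names it. The deposited values are whole reads times a constant, cut to whole numbers: 1 read is worth 8.29 to 9.57 SRPBM, depending on the library, and the smallest value above 0 is 2 reads. Junction reads over all circRNAs numbered 39999 in control 1, 43680 in control 2, and 32806, 44319 and 35323 in triptolide A, B and C. Control 1 stood apart in 1 respect. There, 119 circRNAs were listed at 0 while each of the other 4 libraries held at least 50 SRPBM, against 5 to 10 such circRNAs for each of the other libraries. Zfp host circles made up 2 of the 119. Among cell type markers that host circles, 7 of 9 spermatocyte genes did so, with 2309 and 3164 summed SRPBM in the controls and 2163 to 2607 under triptolide. None of the 7 Sertoli cell markers hosted a circle, and 1 of the 7 Leydig cell markers, Lhcgr, did at 0 to 57 SRPBM. Of 7 elongating spermatid markers only Prm2, a protamine gene, hosted circles, at 703 and 290 SRPBM in the controls, and 86, 79 and 52 under triptolide. The control values of Prm2 lay above all triptolide values, as did those of 11.5% of all 2342 hosts tested. The part of this Prm2 difference in the results below was not tested. Of 7 round spermatid markers, Crem and Spag6l hosted circles, and the groups overlapped. Their summed SRPBM was 315 and 732 in the controls, and 437, 669 and 433 under triptolide.

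As a group, the Zfp host circles made up about 1% of the circRNA signal, and their summed level overlapped between control and triptolide libraries. Their summed level was 3532 and 3085 SRPBM in control 1 and 2, and 3227, 3424 and 3144 SRPBM in triptolide A, B and C. The groups overlapped, and the difference of means was -43.5 SRPBM (two-sided exact permutation p = 0.9; the smallest p that 2 against 3 libraries allow is 0.1). This was 1.01% and 0.859% of all circRNA signal in the controls, and 1.03%, 0.879% and 1.03% under triptolide. The number of these circles listed above 0 was 64 and 60 in the controls, and 55, 68 and 61 under triptolide (difference -0.667, exact permutation p = 0.9). Both differences changed sign when control 1 was left out, to 180 SRPBM and 1.33 circles.

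Circles were spread unevenly over the hosts. The mean was 3.02 circles per Zfp host, against 2.96 for the other hosts, with medians of 1 and 2. In all, 25 Zfp hosts (56.8%) had a single circle, against 48.2% of other hosts, while 8 Zfp hosts (18.2%) had 5 or more, against 17.4%. The 6 hosts with the most circles, Zfp644, Zfp638, Zfp236, Zfp280d, Zfp207 and Zfp407, held 66 of the 133 circles (49.6%) and 60.0% of the summed signal. At the other end, 15 hosts had no circle listed in more than 1 library, among them Zfp382, Zfp322a and Zfp711. The hosts lie on 17 chromosomes. RefSeq (GRCm38.p6) lists the host of 132 circles, and 131 of these circles lay within it. Chromosomes 13 and 18 carried 7 of the hosts each. Chromosome 18 held 26 of the circles, among them the 11 of Zfp236 and the 7 of Zfp407.

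**Figure D1:**
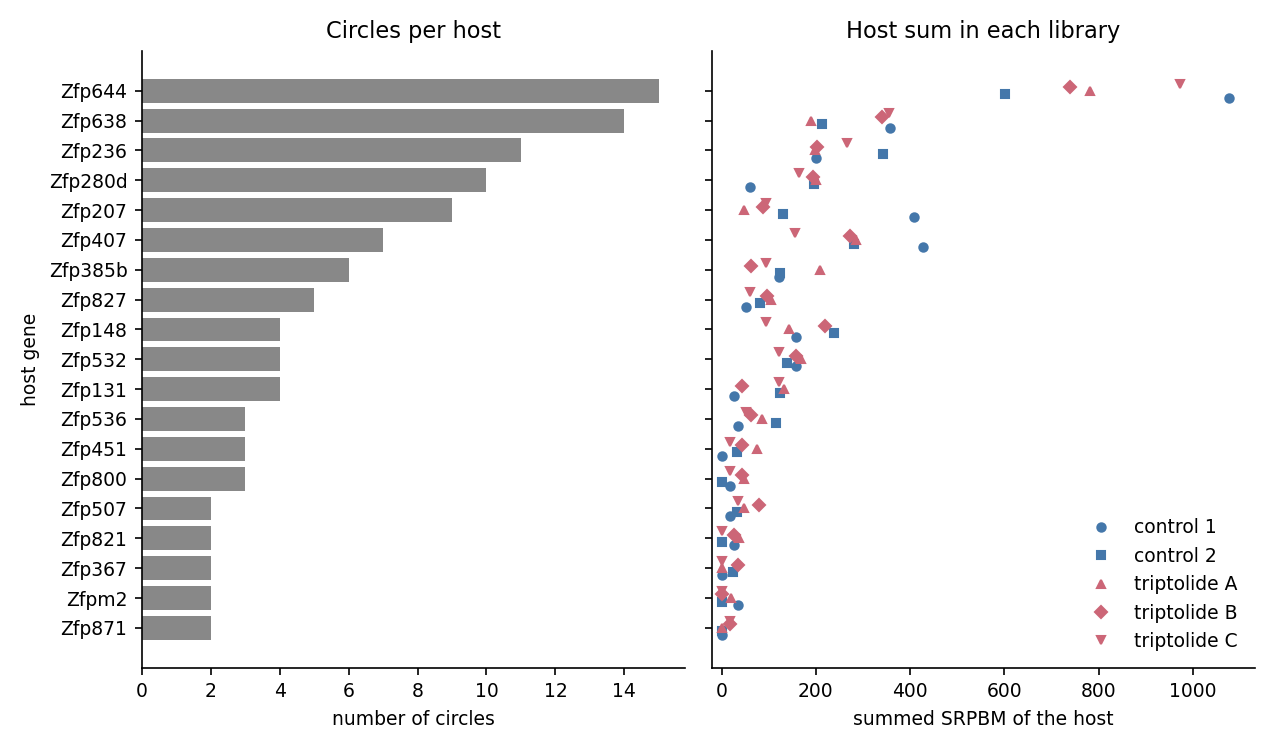
Left, number of circles of each of the 19 Zfp hosts with at least 2 circles; right, summed SRPBM of the same hosts in each library (blue, control; red, triptolide; 1 point per library). Zfp644 leads in both, with 15 circles and 601 to 1077 SRPBM, and for Zfp207 both control points lie above the 3 triptolide points.

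Like the other circRNAs, most of the Zfp host circles were low in abundance, and many were seen in 1 library only. The median of their mean SRPBM was 10.4, against 7.6 for all other circRNAs, and the highest mean was 213.6, against 9489 elsewhere. In all, 65 circles (48.9%) were listed in 1 library only, against 54.4% of the others, and 22 (16.5%) in all 5 libraries, against 11.7%. Those 22 carried 57.5% of the group's signal. Control 1 alone listed 21 circles, control 2 alone 14, and triptolide A, B and C alone 6, 15 and 9. Over all circRNAs the numbers were 1231 and 1558 in the controls, and 1037, 1578 and 1096 under triptolide. The highest value of a Zfp host circle listed in 1 library only was 66 SRPBM.

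The genomic span of a circle, from acceptor to donor with introns included, had a median of 15607 bases, against 16127 for other circRNAs. At the short end, 2 circles (1.50%) were under 1000 bases, against 4.43%. Long spans over 50000 bases were seen in 14 circles (10.5%), against 14.5%. No test was made of these shares, which describe the lists. The shortest spans, 655 bases in Zfp292, 924 bases in Zfp451 and 1096 bases in Zfp608, belonged to low circles. The Zfp292 circle was listed only in triptolide C, at 43 SRPBM, the Zfp451 circle only in triptolide A and B, at 47 and 26, and the Zfp608 circle only in triptolide B, at 17. The 3 longest spans all belonged to Zfp407, a large C2H2 gene, at 237179, 202085 and 116629 bases. Long circles were found at both high and low levels: the longest was also the 7th most abundant Zfp host circle, and the next was listed only in control 1, at 26 SRPBM.

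Zfp644 had the most circles and the highest signal. It encodes a C2H2 protein that associates with the histone methyltransferases G9a and GLP. Its 15 circles, on chromosome 5, ranked the gene 57th of 3496 hosts by number of circles. The host sum was 1077 and 601 SRPBM in the controls, and 781, 740 and 972 under triptolide. The triptolide values lay between the 2 controls, and the log2 difference was 0.03 ± 0.31 (SE; limma, Benjamini-Hochberg adjusted p = 0.999). Zfp644 lies on the minus strand in RefSeq, so the high end of a circle is the back-splice acceptor. The 15 circles combined 6 low ends with 5 high ends. Of the high ends, 106638635 and 106666845 served 5 circles each, from the same 5 low ends.

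In all, 4 Zfp644 circles were among the 10 most abundant. The leading one (5:106618071-106638635) stood at 369 and 174 SRPBM in the controls, and 105, 203 and 217 under triptolide. Control 1 was the highest and triptolide A the lowest, and the log2 difference was -0.56 ± 0.46 (limma, adjusted p = 0.769). The second (5:106618071-106666845) uses the same donor and the farther acceptor, and held 255 and 124 SRPBM in the controls, and 133, 186 and 174 under triptolide. The other two begin at a donor farther upstream. The circle 5:106634831-106666845 had 79 and 132 SRPBM in the controls, and 191, 106 and 209 under triptolide, with overlap at triptolide B. The circle 5:106634831-106638635, of 3805 bases, had 123 and 82 SRPBM in the controls, and 105, 53 and 121 under triptolide. Choice between the 2 main acceptors was compared as the share at the nearer one, 106638635, of the signal at both. That share was 63.6% and 48.5% in the controls, and 50.0%, 41.0% and 46.3% under triptolide. The groups overlapped (exact permutation p = 0.3, smallest possible 0.1, a test not among the planned ones).

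**Figure D2:**
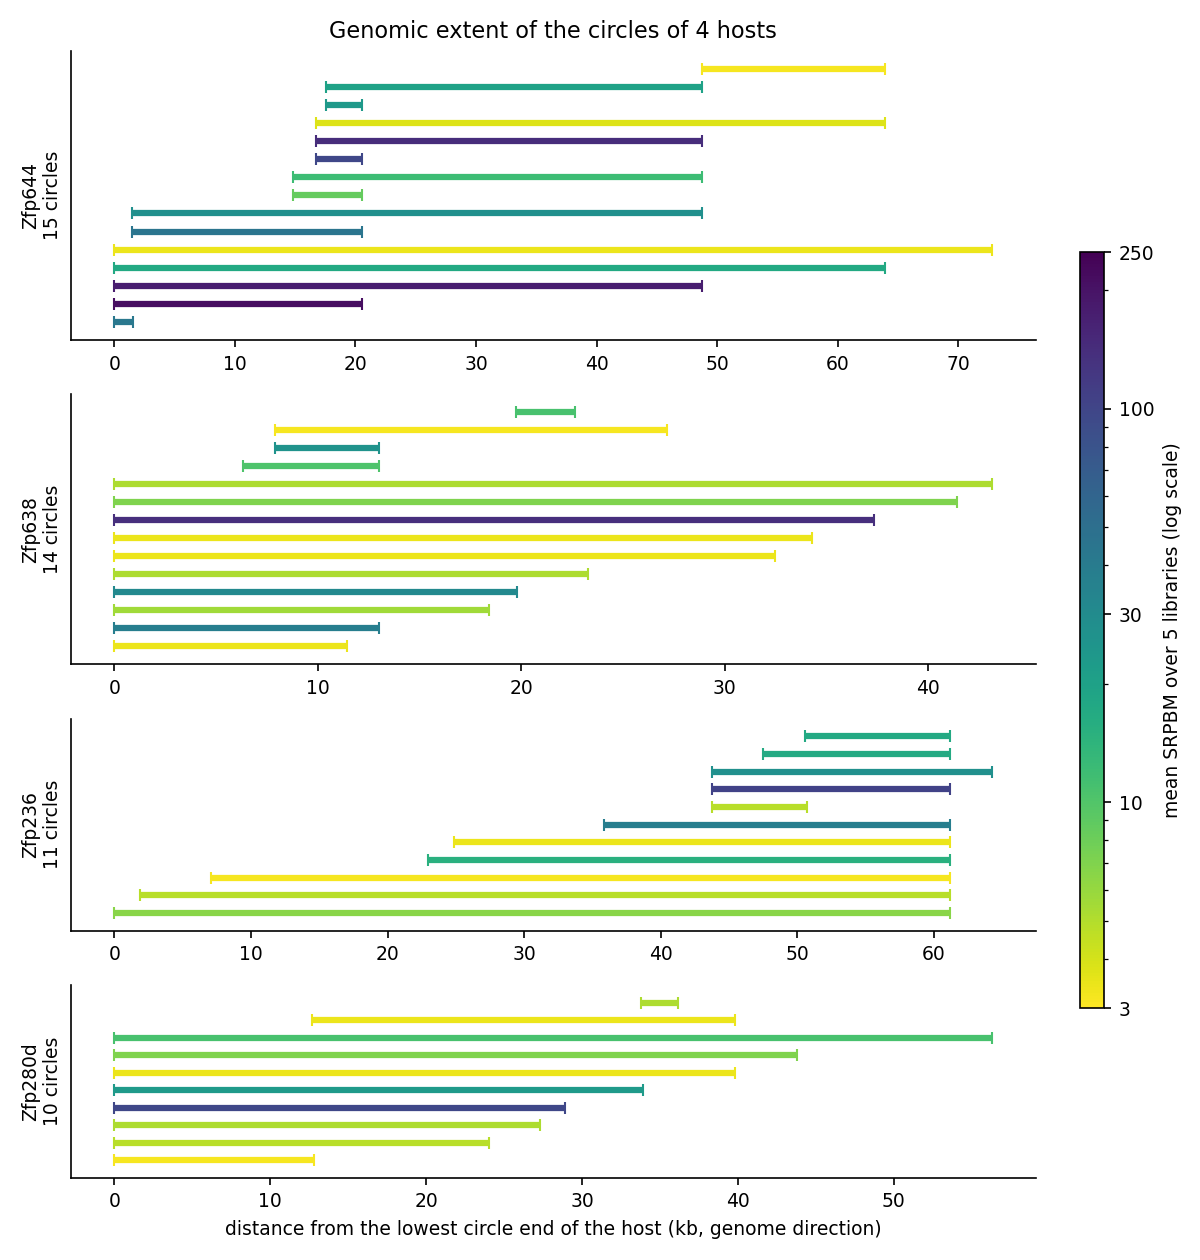
Each bar is 1 circle, drawn from its low to its high end in kb from the lowest circle end of its host, for the 4 hosts with the most circles; colour gives mean SRPBM over the 5 libraries on a log scale. Zfp644 circles stack on 2 high ends with 5 circles each, 10 of 14 Zfp638 circles start at 1 low end, 9 of 11 Zfp236 circles share 1 high end, and 8 of 10 Zfp280d circles share 1 low end.

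Several of the other hosts with many circles also had 1 end in common to most of them. Zfp638 encodes a large nuclear protein (NP220) that binds cytidine-rich DNA and takes part in silencing unintegrated retroviral DNA. It lies on the plus strand, and 10 of its 14 circles share the low end 83934949, here the acceptor. The Zfp638 sum was 358 and 213 SRPBM in the controls, and 189, 341 and 355 under triptolide, and the groups overlapped. Its leading circle (6:83934949-83972283) had 219 and 116 SRPBM in the controls, and 114, 79 and 165 under triptolide. The leading circle made up 61.2% and 54.5% of the host's signal in control, and 60.3%, 23.2% and 46.5% in triptolide libraries (exact permutation p = 0.4). Triptolide B, where that share was lowest, listed 9 Zfp638 circles, against 4 to 6 in the other libraries.

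Zfp236 and Zfp280d, both C2H2 genes, followed. In Zfp236, on chromosome 18, 9 of 11 circles share the high end 82682287. The host sum was 200 and 343 SRPBM in the controls, and 199, 202 and 267 under triptolide. Control 2, the highest, listed 10 of the 11 circles, against 4 to 6 in the other libraries. The leading Zfp236 circle (18:82664838-82682287) varied the least of the 10 most abundant, at 96 and 91 SRPBM in the controls, and 114, 115 and 104 under triptolide. All its triptolide values lay above the controls, but the log2 difference was only 0.21 ± 0.38 (limma, adjusted p = 0.980). In Zfp280d, on chromosome 9, 8 of 10 circles share the low end 72295279, its acceptor on the plus strand. The host sum was 60 and 196 SRPBM in the controls, and 200, 193 and 164 under triptolide. Control 1 was the low value here, in the host sum and in the leading circle (9:72295279-72324154), which had 43 and 107 SRPBM in the controls, and 124, 115 and 95 under triptolide.

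Zfp131, which encodes a BTB-domain zinc finger protein, showed the pattern in full: its 4 circles share the acceptor 119790287. Over the 8 Zfp hosts with at least 4 circles and a RefSeq strand, 50 of 67 circles (74.6%) shared their acceptor with another circle of the host and 32 (47.8%) shared their donor. In the 620 other hosts with at least 4 circles and a RefSeq strand the shares were 67.6% and 54.2%. The most used acceptor held a median of 55.0% of a Zfp host's circles and the most used donor 29.2%, against 50.0% and 33.3% in the other hosts. By host, the most used acceptor served more circles than the most used donor in 4 of the 8 Zfp hosts, as many in 3 and fewer in 1, against 351, 152 and 117 of the 620 others. The exception was Zfp207, on the plus strand, where 5 of 9 circles shared the donor 80403662 and at most 3 shared an acceptor. In Zfp407 and Zfp385b, with 7 and 6 circles, no end served more than 3.

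Other abundant circles came from hosts with few forms. Zfp148 encodes a factor (ZBP-89) that binds GC-rich promoter elements. Its circle 16:33421321-33434974 had 140 and 223 SRPBM in the controls, and 124, 186 and 78 under triptolide, and made up 87.9% of the host's signal. Zfp407 placed its longest circle (18:84315806-84552984) at 87 and 140 SRPBM in the controls, and 153, 150 and 43 under triptolide. In both, triptolide C was the lowest library.

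Zfp516, which encodes a co-activator known from brown fat, had 1 circle (18:82955524-82957449), of 1926 bases. It was listed at 0 in control 1 and at 157 SRPBM in control 2, and at 181, 230 and 78 in triptolide libraries. Control 1 thus stood alone, and control 2 lay among the triptolide libraries. The log2 difference was 1.66 ± 0.95 (limma, adjusted p = 0.676). Without control 2 it was 3.37 with an adjusted p of 7.5e-06 by limma, a fit that rests on control 1 alone. In that fit 2.85% of 4560 circRNAs passed, nearly all of them higher (2.68%). Without control 1 the difference was -0.06 (limma, adjusted p = 0.974). The Zfp516 circle is one of the 119 circRNAs missing only from control 1, and the cause was not tested. The other Zfp host circle among them, singled out after its values were seen, was that of Zfp827 (8:79118175-79136663), at 0 in control 1, 82 in control 2, and 105, 62 and 60 SRPBM in triptolide libraries.

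**Figure D3:**
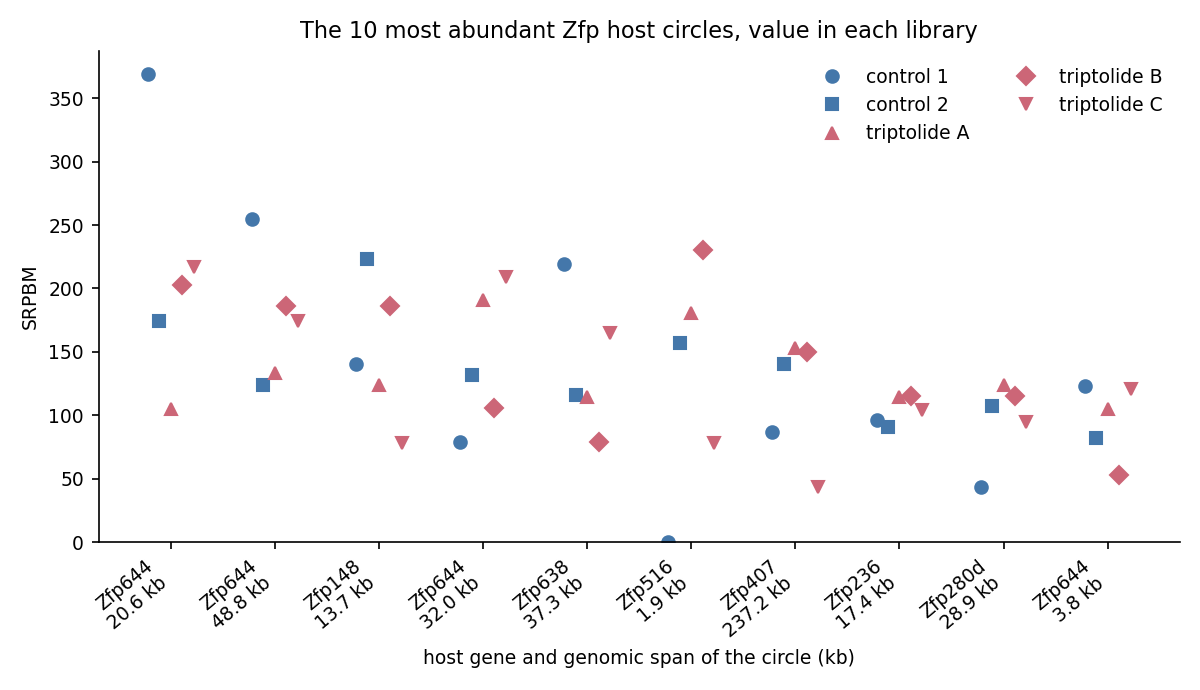
SRPBM of the 10 most abundant Zfp host circles in each of the 5 libraries, in order of mean level (blue, control; red, triptolide; 1 point per library). Control 1 is the highest point for the leading Zfp644 and Zfp638 circles and lies at 0 for Zfp516; only for Zfp236 do all 3 triptolide points, at 104 to 115, lie above both controls, at 96 and 91.

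No Zfp host circle passed the test for a difference between triptolide and control. Of the 133 circles, 68 were above 0 in at least 2 libraries and were tested, and 65 were not. None of the 68 passed an adjusted p of 0.05 in limma, nor did any circRNA of the 5457 tested (0%). The lowest adjusted p of a Zfp host circle was 0.676. At an unadjusted p under 0.05 there were 3 Zfp host circles (4.41%), against 6.6% of all circRNAs tested. With edgeR on the recovered junction reads, an analysis added after seeing the data, 0 of the 68 passed and 0 had an unadjusted p under 0.05, against 0% and 2.36% of all tested. Of the 68 circles, 38 had a log2 difference above 0 (55.9%) and 30 below, against 45.7% above 0 over all circRNAs tested. The median log2 difference was 0.15 over the 68 circles and -0.06 over all circRNAs tested. Among the 22 circles above 0 in all 5 libraries it was -0.18, against -0.09 over all such circRNAs, and again none passed (lowest adjusted p = 0.625 by limma, background 0.0712%).

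**Figure D4:**
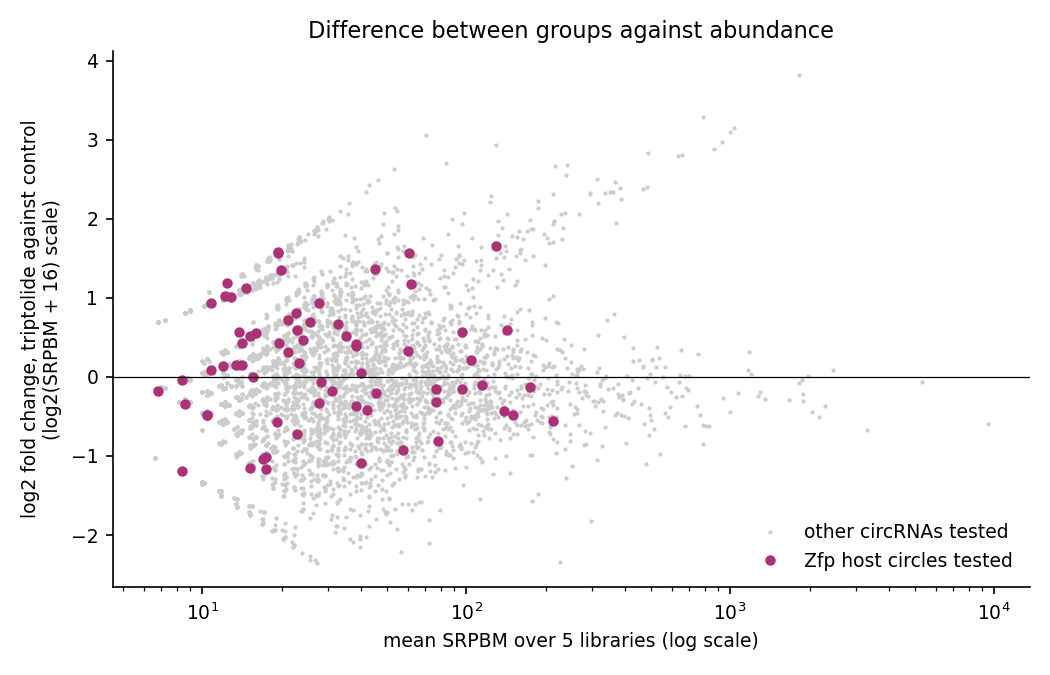
Log2 difference of triptolide against control, on the log2(SRPBM + 16) scale, against mean SRPBM over 5 libraries (log axis) for the 5457 circRNAs tested (grey) and the 68 Zfp host circles among them (purple). The Zfp host circles lie within the grey cloud, between -1.20 and 1.66, and none passed the test.

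Libraries of the groups did not overlap for 10 Zfp host circles. Triptolide was the higher group in 6 of the 68 tested (8.82%), against a background of 6.78%, and the lower in 4 (5.88%), against 10.5%. The first share was near its background and the second below it, so neither is a result about these circles. The circle of Zfp131 (13:119766571-119790287) had 0 in each control library, against 28, 26 and 43 SRPBM with triptolide. A Zfp644 circle (5:106635610-106666845) likewise had 0 in each control library, and 19, 35 and 43 SRPBM with triptolide. One of Zfp451 (1:33779044-33786532), which encodes a SUMO ligase, had 0 in each control library, then 28, 17 and 17 SRPBM with triptolide. These are values of 2 to 5 reads, close to the smallest the table lists. These circles met the test filter and the naming rule through triptolide libraries alone. A circle listed in control libraries alone cannot reach the 3 libraries that the rule asks for. Other circles of Zfp131 and Zfp451 were listed in controls, and both host sums overlapped. The Zfp131 sum was 26 and 124 SRPBM in the controls, and 132, 43 and 121 under triptolide. For Zfp451 it was 0 and 33 in the controls, and 75, 43 and 17 under triptolide. Zfp507 (7:35776438-35791762) had 17 and 33 SRPBM in the controls, and 47, 44 and 34 under triptolide, where 33 in control 2 and 34 in triptolide C are both 4 reads. The longer Zfp148 circle (16:33421321-33457001) had 0 and 16 SRPBM in the controls, and 19, 17 and 17 under triptolide, a gap smaller than the worth of 1 read.

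The 4 circles lower in triptolide came from Zfp407 and Zfp207. The circle 18:84342946-84354691 of Zfp407 was the most abundant of them, at 114 and 107 SRPBM in the controls, and 57, 70 and 43 under triptolide. The control values lay above all 3 others, and the log2 difference was -0.82 ± 0.44 (limma, adjusted p = 0.676). Another Zfp407 circle (18:84315806-84432434) had 105 and 33 SRPBM in the controls, and 28, 17 and 17 under triptolide. For the Zfp207 circle 11:80391331-80398470 the values were 35 and 24 SRPBM in the controls, and 0, 0 and 17 under triptolide. The last, Zfp207 11:80383446-80403662, was listed in the 2 controls only, at 26 and 16 SRPBM, and is named after its values were seen because it was in too few libraries for the naming rule.

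Zfp207 had the lowest log2 difference of the Zfp host sums tested, though it did not pass. It encodes BuGZ, a protein that binds Bub3 at the kinetochore and takes part in spindle assembly. Its 9 circles together had 409 and 131 SRPBM in the controls, and 47, 88 and 94 under triptolide. Both control values lay above the triptolide values, and control 1 was far above control 2. The log2 difference was -1.48 ± 0.55 (limma, unadjusted p = 0.026, adjusted p = 0.754), and 6.28% of all hosts tested had an unadjusted p under 0.05. Control 1 listed all 9 circles, control 2 listed 4, and the triptolide libraries 2, 2 and 3 (exact permutation p = 0.1, the smallest possible). This test was not among the planned ones and used the same values as the sum, so it adds no separate support. The leading circle (11:80394286-80398470) had 114 and 58 SRPBM in the controls, and 19, 62 and 34 under triptolide, so the groups overlapped there. Without control 1 the log2 difference of the sum was -0.71 (limma, adjusted p = 0.952). Without control 2 it was -2.24 (limma, adjusted p = 0.021), where 2.28% of hosts passed in either direction and 0.143% as lower.

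Among the 32 Zfp hosts tested on sums, Zfp207 was the one lower without overlap, against 11.5% of all 2342 hosts tested. Zfp507 was the one higher, with 17 and 33 SRPBM in the controls, and 47, 79 and 34 under triptolide, again 4 reads each at 33 and 34, against 7.13%. No Zfp host passed, nor did any other host (0%). The Zfp407 sum was 428 and 280 SRPBM in the controls, and 285, 272 and 155 under triptolide, with overlap at triptolide A. Zfp385b, which encodes a protein linked to p53-dependent cell death, had 122 and 123 SRPBM in the controls, and 209, 62 and 95 under triptolide.

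Genes that work with KRAB zinc finger proteins, or carry other zinc fingers, gave no calls either. Of 33 genes of the KRAB silencing pathway, 14 hosted 66 circles, and 0 of the 24 tested passed, with a median log2 difference of -0.22. Trim24, a bromodomain relative of Trim28, led with a circle (6:37903533-37931500) at 598 and 306 SRPBM in the controls, and 210, 425 and 322 under triptolide. Morc3, a nuclear ATPase, had a circle (16:93847288-93853217) at 0 in control 1 and at 240 in control 2, with 181, 274 and 104 in triptolide libraries. As for Zfp516, control 1 alone was at 0. Other C2H2 genes (32 hosts, 60 circles) had 0 of 28 circles passing. Their most abundant circle, from Sp1, a factor that binds GC boxes, had 615 and 886 SRPBM in the controls, and 602, 717 and 653 under triptolide. Genes with zinc fingers of other folds (35 hosts, 129 circles) had 0 of 63 passing. The median log2 differences were -0.16 for other C2H2 genes and -0.14 for other folds. Over all 5457 circRNAs tested the median was -0.06 and 0% passed, so the absence of calls is not particular to these lists.

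The authors' lncRNA table gave a second readout at the same genes, which the choice of circles did not use. It holds expected counts for assembled transcripts, summed here per locus, and 12 loci carried the symbol of 11 Zfp circle hosts. All 12 included antisense transcripts. Of these, 6 had enough counts for edgeR's quasi-likelihood test, and 1 passed, as higher, against 7.27% of the 6888 loci tested in either direction and 5.01% as higher. The triptolide columns of this table are named A, B and 3, and the letters do not match those of the circRNA table.

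The locus that passed, XLOC_162630, rose with triptolide. It lies antisense to Zfp384 and its neighbour Ing4 (6:125010181-125050284, minus strand). Zfp384 encodes a C2H2 factor that binds A-rich DNA. Expected counts of the locus were 144 and 146 in the controls, and 285, 297 and 346 under triptolide, and all 3 triptolide values lay above the controls. The level was 143 ± 9.1 CPM (SD, n = 2) in control and 306 ± 28.1 CPM (SD, n = 3) in triptolide, 2.14-fold higher. The log2 difference was 1.10 ± 0.20 (SE; edgeR quasi-likelihood, adjusted p = 0.00084). The alternatives on the locus, including leaving out each library, gave 1.01 to 1.19. Most of the counts came from the 4 transcripts named for Zfp384, with 111 and 86.1 in the controls, and 269, 258 and 320 under triptolide. The 3 transcripts named for Ing4 had 32.8 and 59.9 in the controls, and 16.1, 38.8 and 26.1 under triptolide. TCONS_00273923, named for Ing4, was not among the single transcripts tested, and none of the others passed. The largest, TCONS_00273925, had a mean of 76.9 counts in the controls and 230.0 under triptolide, a log2 difference of 1.59 ± 0.34 (edgeR, adjusted p = 0.288), and the other 3 named for Zfp384 had 0.88 to 2.09. The only Zfp384 circle (6:125010381-125035871) lies within the locus and was listed at 17 SRPBM in triptolide C alone. The sources used here do not give the strand setting of the counting, and sense reads of Zfp384 cannot be told apart from antisense ones.

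**Figure D5:**
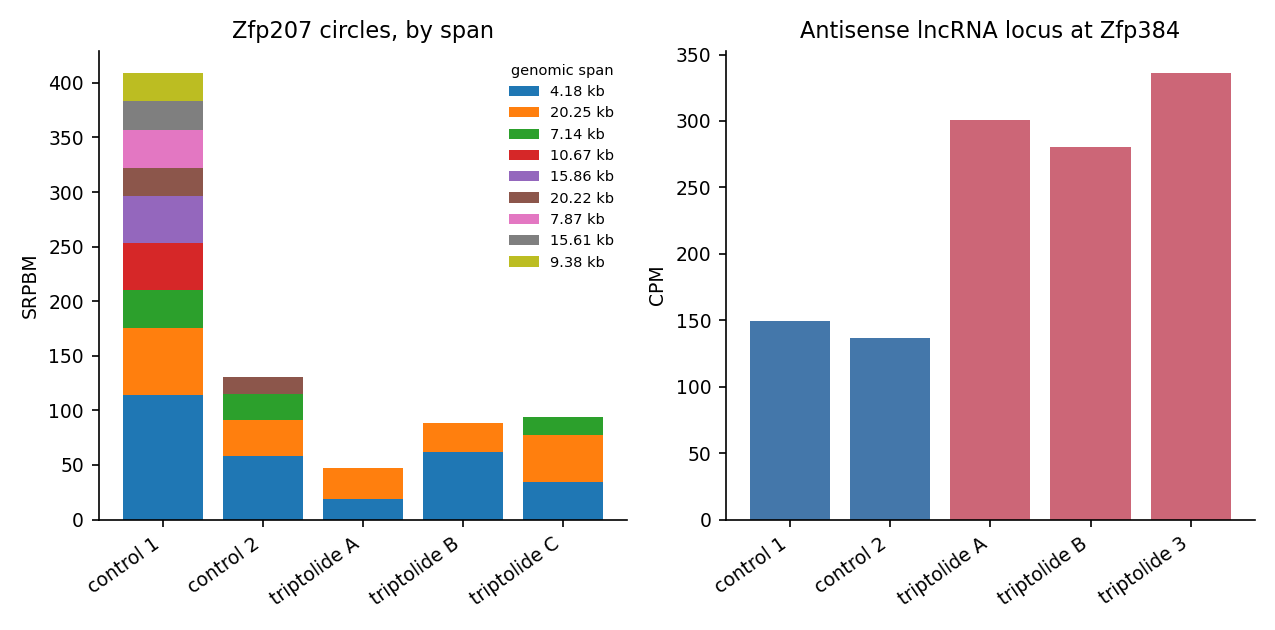
Left, SRPBM of the 9 Zfp207 circles stacked by library, coloured by genomic span; right, CPM of the antisense locus at Zfp384 in the lncRNA table by library (blue, control; red, triptolide; 1 bar per library). Control 1 holds all 9 Zfp207 circles and 409 SRPBM, against 47 to 131 elsewhere, and the Zfp384 locus is at 143 CPM on average in control and 306 CPM in triptolide.

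The other abundant loci did not pass. The highest, XLOC_000992 at Zfp451, stood at 585 ± 117 CPM (SD, n = 2) in control and 597 ± 41.7 CPM (SD, n = 3) in triptolide. At Zfp644, XLOC_144413 had 94.3 ± 13.2 CPM in the controls, against 87.3 ± 2.7 CPM in triptolide. At Zfpm2, which encodes the GATA co-factor FOG2, XLOC_071505 had 86.2 ± 5.7 CPM in the controls, against 86.8 ± 20.7 CPM under triptolide; of its 6 transcripts, 5 carry the name of 4930555K19Rik. None of these 3 loci overlapped a circle of its host.

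Loci XLOC_000992 (1:33813351-33816868) and XLOC_144413 (5:106696625-106698666) run on the plus strand, opposite to their hosts, and span the host's RefSeq start. The 250 bases before each start are shown because the antisense locus covers them, provided that the deposited coordinates are of this mouse build, which the sources used here do not name. The sequences are from RefSeq, GRCm38.p6, minus strand, at chr1:33814596-33814845 for Zfp451 and chr5:106696831-106697080 for Zfp644, 5′ to 3′ along the host. Capitals mark a CCAAT box (CCAAT, here on the opposite strand) and a GC box (GGGCGG).
Zfp451: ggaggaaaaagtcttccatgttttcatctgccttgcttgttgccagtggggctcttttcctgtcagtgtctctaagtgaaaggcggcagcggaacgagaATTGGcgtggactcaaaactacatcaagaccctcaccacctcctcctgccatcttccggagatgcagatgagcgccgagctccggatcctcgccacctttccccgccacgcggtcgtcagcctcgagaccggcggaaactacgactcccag
Zfp644: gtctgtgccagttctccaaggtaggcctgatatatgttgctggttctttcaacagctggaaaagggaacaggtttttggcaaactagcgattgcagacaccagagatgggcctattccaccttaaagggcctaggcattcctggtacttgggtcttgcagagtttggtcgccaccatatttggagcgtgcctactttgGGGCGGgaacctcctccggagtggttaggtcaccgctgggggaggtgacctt
Searched on both strands, Zfp451 held 1 CCAAT box, no GC box and 17 CG pairs, and Zfp644 held 1 GC box, no CCAAT box and 6 CG pairs. Among 32851 promoters of the same length, 32.7% held a GC box and 33.8% a CCAAT box, and the median number of CG pairs was 6. The motifs do not overlap each other in these stretches, and a match is a description of the letters.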

How the data were processed

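The authors deposited 3 tables, made, per the submitters' processing notes, with HISAT2 2.0.1, HTSeq 0.6.1, DESeq and bedtools 2.17.0, with no role given for each. The notes name a human build, but 131 of 132 Zfp host circles lie inside their host in the mouse RefSeq table (GRCm38.p6), so coordinates are printed as deposited. For circRNAs the authors deposited a score that they name SRPBM. Of its values above 0, 99.96% to 99.98% per library equal a whole number of reads times a constant, truncated to a whole number. For lncRNAs the values are expected counts, per the file headers, with totals of 947272 to 1070991 per library. Its 5 FPKM columns and the mRNA table, which names no genes, were not used. Columns were matched to samples by header. A header is shared by 3 circRNA columns and by 2 lncRNA columns, which entered as triptolide libraries with no replicate number.

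circRNAs above 0 in at least 2 libraries, and host sums, were tested with limma 3.58.1 (R 4.3.3, trend) on log2(SRPBM + 16), which understates the change of low circles. Expected counts were summed per locus, rounded and tested with edgeR 4.0.16 (filterByExpr, TMM, quasi-likelihood F test). CPM is scaled to the library's total in the table. p-values were adjusted by Benjamini-Hochberg over all features, with a threshold of 0.05. For single values per library a two-sided exact permutation test ran over all 10 assignments. Alternatives were pseudocounts of 1 and 50, other filters, equal totals, limma without trend, DESeq2 1.42.0, each library left out, and edgeR on junction reads. The scripts were tested on simulated data. The change simulated for limma was larger than any difference of a Zfp host circle in the main fit. The simulation therefore does not show whether differences of the size seen here could be detected.

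Circles named are the 10 most abundant, the leading circle and sum of the 6 hosts with the most circles, up to 6 per direction without overlap and above 0 in at least 3 libraries, and the 3 longest and 3 shortest. Loci named are those past the threshold and the 4 most abundant. The members and lists were chosen with earlier results of these data known. Junction reads carry no molecular identifiers, so read numbers do not count molecules.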

Additional observations from a re-analysis of the deposited data

How the results depend on the processing

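The call at the Zfp384 antisense locus held in all alternatives run on loci (adjusted p 5.0e-05 to 0.0089 by edgeR or DESeq2) and was lost when single transcripts were tested (0 passing); the cause was not tested. Leaving out 1 library at a time, 0 to 1 Zfp host circles passed in limma and 0 to 1 of the hosts with 5 or more circles. The single calls, the Zfp516 circle (range -0.062 to 3.37) and the Zfp207 sum (-2.24 to -0.71), came without control 2, where control 1 is assumed to vary like the other group. The difference in summed SRPBM ranged from -267 to 180 when 1 library was left out, was 53.0 without the most abundant circle, and was 0.046 percentage points as a share of all circRNA signal. The difference in the number of circles ranged from -4 to 2.5. For 32 single circles, sums and loci, 351 of 375 alternatives kept direction and side of the threshold, 22 turned the sign of a difference that was not called, and 2 made a call. These counts do not measure robustness. A change of filter or limma without trend leaves the difference of a circle or sum as it was. Of the 32, only the Zfp384 locus was called in the main fit. The signs turned on leaving out 1 library for Zfp644 5:106618071-106666845 (-0.60 to 0.35) and 5:106634831-106638635 (-0.41 to 0.14), Zfp407 18:84315806-84552984 (-0.40 to 0.40), the sums of Zfp644 (-0.38 to 0.45), Zfp638 (-0.32 to 0.39), Zfp236 (-0.60 to 0.13) and Zfp280d (-0.077 to 1.40), and the loci XLOC_000992 (-0.18 to 0.29), XLOC_071505 (-0.22 to 0.15), XLOC_117623 (-0.24 to 1.90), XLOC_144413 (-0.21 to 0.018) and XLOC_186896 (-0.83 to 3.10). With edgeR on junction reads, added after seeing the data, Zfp407 18:84315806-84552984 was at 0.0088 and the Zfp644 sum at -0.013. Their causes were not tested. With 2 reads as the smallest value, a circle listed in 1 library cannot be told from one missed in the others at this depth. No paired analysis was possible because the triptolide columns of the circRNA table all carry the same number, and those of the lncRNA table share fewer than 2 numbers with the controls.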

Other observations

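Hosts with a single circle gave further values missing from control 1, listed here after the values were seen. The circle of Zfp326 (5:105891118-105911508) was at 0 in control 1, 49 SRPBM in control 2, and 105, 106 and 43 SRPBM in triptolide libraries. That of Zfp438 (18:5210877-5214919) was at 0 and 49 SRPBM in control and at 19, 62 and 34 SRPBM in triptolide libraries. In all, 7 Zfp host circles were above 0 in every library except control 1, against 2 for control 2, 1 each for triptolide A and C, and 0 for triptolide B. Over all circRNAs the numbers were 383 for control 1, 122 for control 2, and 187, 119 and 189 for triptolide A, B and C. Control 1 listed 21 Zfp host circles found in no other library, the most of the 5 libraries, 5 of them from Zfp207. Over all circRNAs control 1 was not the highest in this respect. There the numbers were 1231 for control 1, 1558 for control 2, and 1037, 1578 and 1096 for triptolide A, B and C. The circle of Zfp512 was listed in every library, at 61 and 41 SRPBM in control and 47, 35 and 43 SRPBM in triptolide libraries.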
